A study of Mus musculus with 3 samples.

Results

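tRNA-His-GTG, called His-GTG below, is the nuclear histidine tRNA, which reads histidine codons with the anticodon GTG (written as in the gene). Its fragments were described in small RNA of mouse epididymis, the duct in which sperm mature. They were taken as all table rows whose tRNA name starts with tRNA-His-GTG, which gave 10 of the 446 tRNA genes in the gene table. All 10 had reads in every library. The groups were Alkbh3-/- epididymis, with 2 libraries (knockout 1 and knockout 2, numbered as the labels do), and wild-type epididymis, with 1 library labelled B6WT. The labels give no age, no sex, no allele design for the knockout and no statement that the knockout libraries come from separate animals. The p-values thus rest only on the spread between the 2 knockout libraries, pooled over tRNA features, and that spread may be technical. Per the labels' protocols, small RNA libraries were made from the 15 to 50 nt fraction of 100 µg total RNA, excised from a 15% gel.

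ALKBH3 is an enzyme that removes methyl groups from 1-methyladenosine and 3-methylcytidine in tRNA. When a tRNA is cut in its anticodon loop, it gives a 5′ and a 3′ part of similar size, and the 5′ parts are abundant in the male reproductive tract. Histidine tRNA is unusual in carrying an extra guanosine at its 5′ end, which mammalian cells add after transcription, and in most cells its first anticodon base is changed to queuosine. Its 5′ part has been described in human macrophages as a ligand of the immune receptor TLR7.

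The reference sequence of 1 member, tRNA-His-GTG-2-5, could be read over bases 1 to 62 of 72 (chr3:96452495-96452556, plus strand, RefSeq, GRCm38.p6, the assembly of mm10). It is shown so that the read lengths below can be set against the position of its anticodon. Sequences run 5′ to 3′ and capitals mark the anticodon bases 34 to 36. The base before the gene start is C in the genome, so the added guanosine is not encoded there. The other lines show where a read of the 3 most frequent lengths would end if it began at base 1.
His-GTG-2-5, bases 1 to 62: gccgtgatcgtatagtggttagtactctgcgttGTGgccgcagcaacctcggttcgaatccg
first 30 bases: gccgtgatcgtatagtggttagtactctgc
first 31 bases: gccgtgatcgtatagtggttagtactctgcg
first 34 bases: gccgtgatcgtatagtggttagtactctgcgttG
The deposited tables list read lengths but no read starts, so these ends hold only for reads that begin at base 1. A read that began at the added guanosine would end 1 base earlier. Sequences of the other 9 genes were not analysed here.

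The 10 genes lie on 3 chromosomes, and the coordinates of each match a tRNA gene in RefSeq. Chromosome 3 holds 6 of them within 90369 bp. These are 2-4 (96410069 to 96410140, plus strand), 3-1 (96435972 to 96436043, plus), 2-5 (96452495 to 96452566, plus), 2-6 (96458070 to 96458141, minus), 1-1 (96463972 to 96464043, minus) and 2-7 (96500366 to 96500437, minus). Chromosome 2 holds 3 within 2546 bp, namely 2-1 (122375494 to 122375565, minus), 2-2 (122377363 to 122377434, minus) and 2-3 (122377968 to 122378039, plus). Chromosome 4 holds 2-8 (82619623 to 82619694, minus). In GENCODE, 3-1 lies in an intron of the protein-coding gene BC107364 on the other strand, and 1-1 in an intron of the long non-coding RNA Gm10685 on the other strand. Gene 2-8 lies in an intron of Nfib, which encodes a transcription factor, on the same strand. The other 7 overlap no GENCODE gene, and 2-5 starts 188 bp upstream of the 5′ end of BC107364.

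Alkbh3 mRNA and epididymis marker genes were not analysed here, so the genotype and tissue labels were not checked. Depth was taken as the sum over the 5 RNA classes of the deposited class table, which was 15411457 and 21169908 reads in knockout 1 and 2, against 15107055 in the wild type. RPM below are reads per 1000000 reads of these totals. miRNA made up 24.8% and 30.7% of the knockout libraries, against 15.1% of the wild type. The knockout libraries did not hold the same counts, with a chi-square of their gene-table counts, divided by its degrees of freedom, of 38.5, and were kept as 2 samples. That value is set against read sampling alone and does not tell separate animals from separate preparations.

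His-GTG fragments were less frequent in both knockout libraries than in the wild type, by an amount that did not pass the test. The gene table held 55922 and 57352 His-GTG reads in knockout 1 and 2, against 74885 in the wild type. This is 3629 and 2709 RPM in the knockout libraries, which average 3169 ± 650.2 RPM (SD, n = 2), against 4957 RPM in the wild type. His-GTG ranked 5th and 7th of 50 anticodons in knockout 1 and 2, and 6th in the wild type. The knockout values did not overlap the wild type, but they also differed from each other 1.34-fold. The log2 fold change of the sum was -0.65 (SE 0.37, lower in 2 of 2 knockout libraries), with an adjusted p of 0.271 in edgeR's quasi-likelihood test with Benjamini-Hochberg adjustment. Of 45 anticodons tested, 8.89% passed downwards and 2.22% upwards, and in 53.3% both knockout libraries lay below the wild type. His-GTG had the 9th lowest log2 fold change of the 45. In whole tissue, fewer cells of a type and less RNA per cell cannot be told apart.

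As a share of the gene table, His-GTG made up 1.67% and 1.20% of tRNA reads in knockout 1 and 2, against 1.87% in the wild type. As RPM over the reads other than miRNA, it stood at 4827 and 3911 in the knockout libraries, against 5836 in the wild type. The knockout libraries thus lay below the wild type on all 3 scales. Relative to the median log2 fold change of all anticodons, which was -0.29, the His-GTG sum stood at -0.35. That median moved up by 0.25 with TMM factors, 0.26 with column sums as library size, 0.25 without miRNA reads in the library size and 0.32 with DESeq2, and the log2 fold change of His-GTG was then -0.38, -0.37, -0.42 and -0.30.

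**Figure D1:**
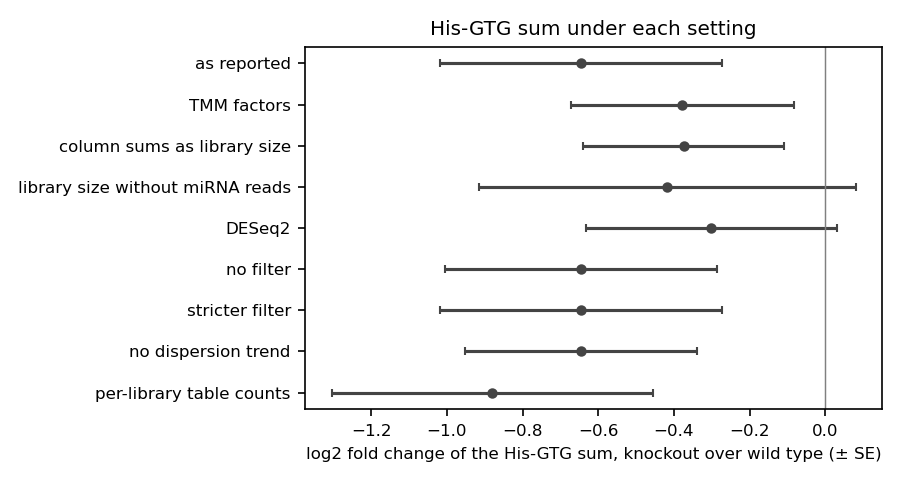
Log2 fold change of the His-GTG sum, knockout (n = 2) over wild type (n = 1), under each processing setting; points are fitted values and bars the standard error. The values lie between -0.88 (per-library table counts) and -0.30 (DESeq2), and none passed the adjusted threshold of 0.05.

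The second kind of deposited table, 1 per library, counts reads per tRNA gene in 2 read classes that no header describes, called the first and the second class here. Summed over classes, His-GTG had 24714 and 26248 reads in knockout 1 and 2, against 39519 in the wild type. This is 1604 and 1240 RPM, a mean of 1422 ± 257 (SD, n = 2), against 2616 RPM. The knockout mean was 0.543 times the wild type here and 0.639 times in the gene table. With these counts the log2 fold change was -0.88 (SE 0.42), and the same edgeR test gave an adjusted p of 0.184, the lowest of the alternatives, which ranged up to 0.744.

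The gene table thus held more His-GTG reads than the per-library tables did, 2.26 and 2.19 times as many in knockout 1 and 2, and 1.89 times in the wild type. Over all tRNA genes the relation was the other way, since the gene table summed to 59.4% and 59.1% of the tRNA class in knockout 1 and 2 and 59.4% in the wild type, and the per-library tables to 94.1% and 94.2%, against 95.5%. Among the other 20 anticodons with at least 1000 reads in every library of both tables, the ratio ranged from 0.585 to 1.02. It was close to 1 for Lys-TTT (1.01, 1.02 and 0.990 in knockout 1, knockout 2 and the wild type) and Asp-GTC (0.928, 0.951 and 0.928). No source used here states how the tables were counted, so neither His-GTG level can be preferred. The size of the knockout difference depends on the table, since the ratio itself was higher in both knockout libraries.

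**Figure D2:**
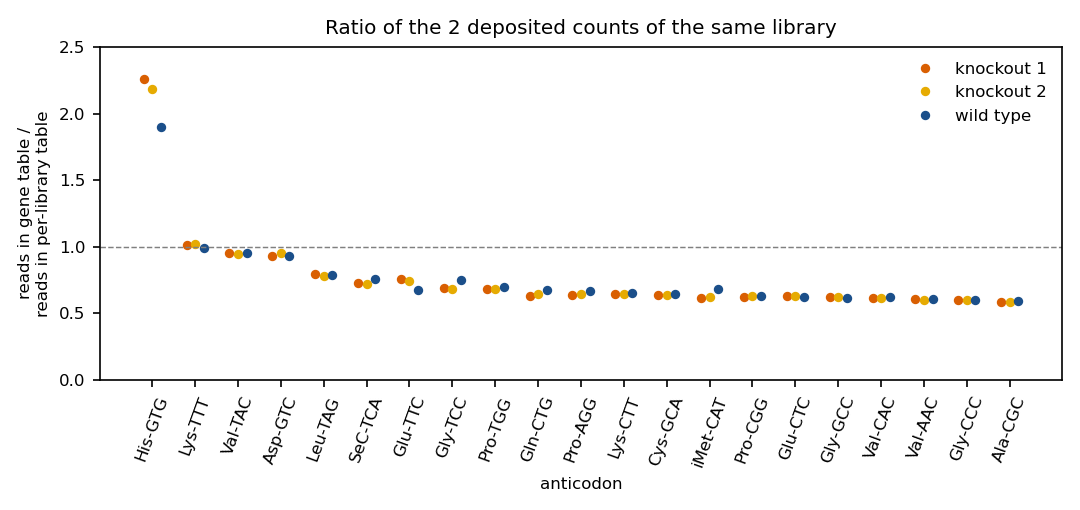
Reads in the tRNA gene table divided by reads in the per-library table of the same library, for 21 anticodons with at least 1000 reads in every library of both tables; each point is 1 library and the dashed line marks equal counts. His-GTG lies between 1.89 and 2.26 and the other 20 anticodons between 0.585 and 1.02.

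The members fall into 3 sets by the number in their names, a number that groups copies with the same mature sequence. The 8 copies of set 2 held nearly all reads, with 98.9% and 98.8% of the His-GTG reads of the gene table in knockout 1 and 2 and 98.8% in the wild type. Reads of such copies cannot be told apart, so values of single copies show how reads were distributed, not what each copy produced. Gene 1-1 held 1.01% and 1.02% in the knockout libraries, against 1.10% in the wild type. Gene 3-1 held 0.127% and 0.136%, against 0.101%.

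Within set 2, copies differed by strand. In the gene table the 3 plus-strand copies (2-3, 2-4 and 2-5) had 9378 to 9516 reads each in knockout 1 and 9543 to 9632 in knockout 2, against 12437 to 12623 in the wild type. The 5 minus-strand copies (2-1, 2-2, 2-6, 2-7 and 2-8) had 5256 to 5516 and 5438 to 5693 reads in the knockout libraries, against 7186 to 7364 in the wild type. The plus-strand mean was 1.75 and 1.72 times the minus-strand mean in knockout 1 and 2, and 1.72 times in the wild type. In the per-library tables these ratios were 1.13, 1.13 and 1.16. The lowest plus-strand copy lay above the highest minus-strand copy in all 3 libraries and in both tables.

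The distribution of reads over the 8 copies did not differ between libraries beyond sampling noise. As reads of these copies cannot be told apart, this describes how reads were assigned and is not a result about the copies. Chi-square per degree of freedom was 0.415 between the knockout libraries, and 0.852 and 0.487 between the wild type and knockout 1 and 2 in the gene table. It was 0.242, 1.23 and 0.821 in the per-library tables. Each copy thus stood at nearly the same fraction of the wild type, from 0.623 (2-6) to 0.649 (2-7) in the gene table and from 0.519 (2-4) to 0.562 (2-7) in the per-library tables.

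**Figure D3:**
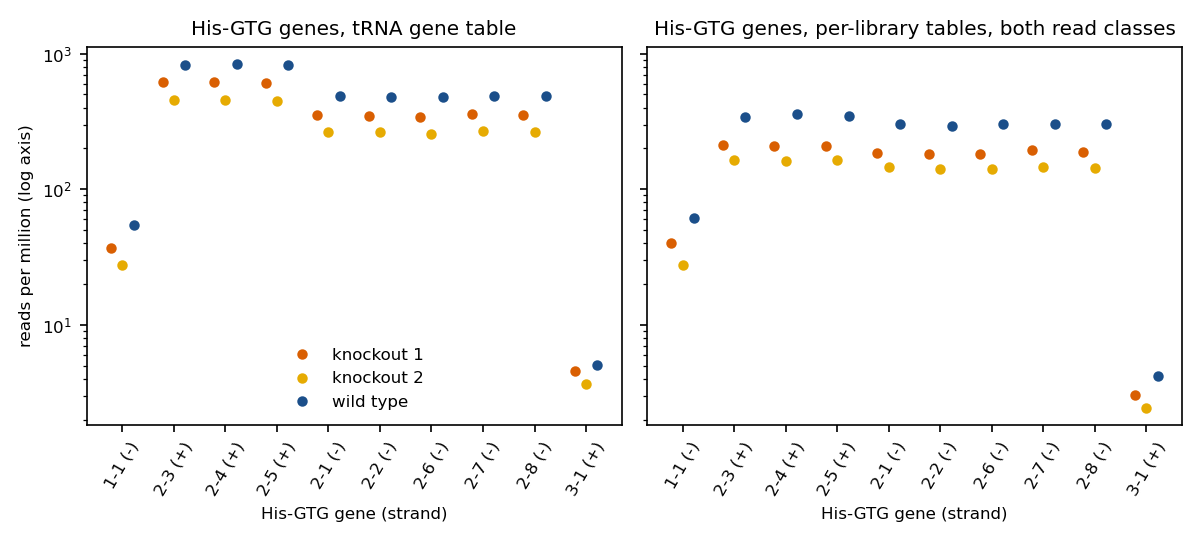
RPM (log axis) of each His-GTG gene in knockout 1, knockout 2 and the wild type, in the tRNA gene table and in the per-library tables; the sign in brackets is the strand, and each point is 1 library. Both knockout libraries lie below the wild type for all 10 genes in both tables, and the plus-strand copies of set 2 lie above the minus-strand copies.

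Set 2 makes up nearly all of the sum and its copies share reads, so a single copy repeats the sum and adds no separate value. Gene 1-1 was also lower in both knockout libraries, while gene 3-1 lay nearer to the wild type. Gene 2-5 had 609 and 451 RPM in knockout 1 and 2, against 823 RPM in the wild type. Its log2 fold change was -0.64 (SE 0.33), for which edgeR's quasi-likelihood test gave an adjusted p of 0.331. Gene 1-1 had 36.7 and 27.6 RPM in the knockout libraries, against 54.5 in the wild type, with a log2 fold change of -0.76 (SE 0.47, adjusted p = 0.435 in edgeR). Gene 3-1, the least abundant, had 4.61 and 3.68 RPM, or 71 and 78 reads, against 5.03 RPM or 76 reads. Its log2 fold change was -0.29 (SE 0.40, adjusted p = 0.885 in edgeR), and the knockout values differed more from each other than knockout 1 did from the wild type.

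None of the 10 genes passed in edgeR's quasi-likelihood test, where 1 gene had an unadjusted p under 0.05, or in DESeq2, where 0 had one. Of all 348 genes tested, 8.62% passed downwards and 3.16% upwards. The median log2 fold change was -0.64 over the His-GTG genes and -0.17 over all genes tested. Both knockout libraries lay below the wild type in 10 of 10 His-GTG genes, against 48.3% of all genes tested in the gene table and 47.1% in the per-library tables. Among the alternatives of the edgeR test, 9 genes had an unadjusted p under 0.05 without a dispersion trend, 8 with the per-library counts and 4 with no filter. With TMM factors, column sums, the library size without miRNA reads and the stricter filter, 0 genes had one. None of the 10 genes passed in any of these. Since 8 of these genes share their reads, they do not give 10 independent values.

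The reads of the per-library tables were nearly all of the first class. The second class held 10 and 7 His-GTG reads in knockout 1 and 2, against 13 in the wild type. This is 0.0405% (95% Wilson interval 0.0220 to 0.0745) and 0.0267% (0.0129 to 0.0550) of His-GTG reads in the knockout libraries, against 0.0329% (0.0192 to 0.0563) in the wild type. These intervals overlap. Like all intervals given here they cover counting error within a library alone. Reads lacking molecular identifiers are not independent molecules, so the intervals can be too narrow. Among 21 anticodons the second class took the fourth lowest share for His-GTG in knockout 1 and the second lowest in knockout 2 and in the wild type. The highest share was that of Asp-GTC, with 72.6% and 65.3% in the knockout libraries, against 70.3% in the wild type. Val-TAC came next, with 49.3% and 43.1%, against 50.6%. The most frequent second-class length was 38 nt, with 6 and 3 reads in knockout 1 and 2 and 5 in the wild type. Other second-class lengths had at most 3 reads in a library, among them 31 nt with 0 and 2 against 1, and 37 nt with 0 and 0 against 3.

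Tested as sums over anticodon and read class, the first class of His-GTG had a log2 fold change of -0.88 (SE 0.33, lower in 2 of 2 knockout libraries), and edgeR gave an adjusted p of 0.0937. The second class had -0.84 (SE 1.19, adjusted p = 0.785). Neither passed in edgeR, where 1 had an unadjusted p under 0.05, or in DESeq2, where 0 had one. Of 89 such sums, 4.49% passed downwards and 3.37% upwards. Over the alternatives the adjusted p of the first class ranged from 0.0680 to 0.673.

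Read lengths of His-GTG had 2 peaks, at 30 to 31 nt and at 34 nt. Reads of 30 to 34 nt together made up 91.7% and 89.9% of His-GTG reads in knockout 1 and 2, against 91.6% in the wild type. The 31 nt reads were the most frequent, at 28.5% and 28.4% in the knockout libraries, against 27.04% (95% Wilson interval 26.6 to 27.5) in the wild type. The 30 nt reads made up 18.6% and 21.7%, against 24.7% (24.2 to 25.1). The 34 nt reads made up 22.9% and 19.1%, against 18.3% (17.9 to 18.7).

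Both knockout libraries thus held a smaller share of 30 nt reads and larger shares of 31 and 34 nt reads than the wild type. The difference was -4.52 percentage points at 30 nt, beside a knockout SD of 2.15 points. It was 2.69 points at 34 nt, beside a knockout SD of 2.72, and 1.38 points at 31 nt, beside an SD of 0.0861. Knockout 2 lay between knockout 1 and the wild type at 30 and 34 nt. With 1 wild-type library these shares were not tested. Reads of 32 nt made up 11.0% and 10.1%, against 10.0%, and reads of 33 nt 10.8% and 10.7%, against 11.6%.

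On the reference sequence, a read from base 1 would end before the anticodon at 30 or 31 nt, and at the first anticodon base at 34 nt. As RPM, the 30 nt reads stood at 299 and 269 in knockout 1 and 2, against 645 in the wild type. The 31 nt reads stood at 457 and 352, against 707 RPM. The 34 nt reads stood at 367 and 236, against 478 RPM. All 3 lengths were thus less frequent per library in both knockout libraries, and the knockout mean was 0.440, 0.571 and 0.631 times the wild type at 30, 31 and 34 nt.

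**Figure D4:**
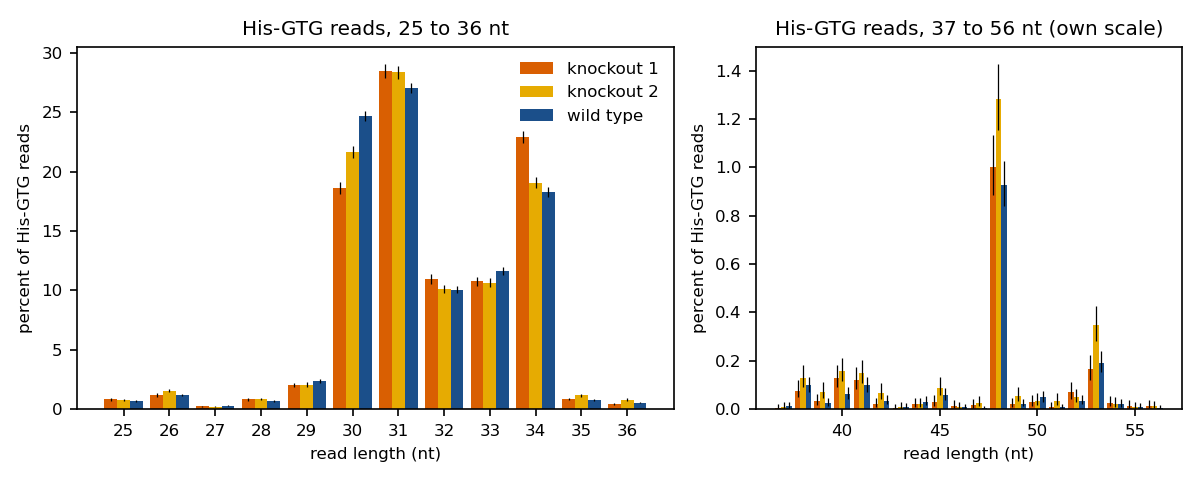
Share of His-GTG reads at each read length in knockout 1, knockout 2 and the wild type, from the per-library tables with both read classes summed; bars start at 0, error lines are 95% Wilson intervals, and the right panel has its own scale. At 30 nt the wild type is highest (24.7%, against 18.6% and 21.7% in the knockout libraries), and at 34 nt it is lowest (18.3%, against 22.9% and 19.1%).

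Fragments were tested as sums over anticodon, read class and length. Of 51 His-GTG features with reads, 26 passed the filter on low counts, all of the first class. The 30 nt feature had the smallest p, with a log2 fold change of -1.19 (SE 0.42, lower in 2 of 2 knockout libraries) and an adjusted p of 0.120 in edgeR. The 31 nt feature had -0.81 (SE 0.41, adjusted p = 0.398) and the 34 nt feature -0.66 (SE 0.43, adjusted p = 0.555). None of the 26 passed in edgeR, where 3 had an unadjusted p under 0.05. None passed in DESeq2 either, which gave an adjusted p to 16 of them and an unadjusted p under 0.05 to 2. Of all 834 features tested, 1.2% passed upwards and 0.959% downwards. Both knockout libraries lay below the wild type in 20 of the 26, against 40.5% of all features. The 26 are parts of the same His-GTG sum, which was lower in both knockout libraries, so they are not independent values. The median log2 fold change was -0.69 over the His-GTG features and -0.01 over all.

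Outside these lengths His-GTG reads were scarce. Reads of 25 to 29 nt made up 5.05% and 5.36% in knockout 1 and 2, against 5.26% in the wild type. Those of 15 to 24 nt made up 0.134% and 0.248%, against 0.0759%. Those of 37 to 50 nt made up 1.52% and 2.10%, against 1.44%, most of them at 48 nt (248 of 375 and 337 of 552 reads, against 367 of 569). Reads above 50 nt, the upper limit of the gel piece, made up 0.295% and 0.472%, against 0.268%, with a small peak at 53 nt (41 and 91 reads, against 76). Knockout 2 was the highest of the 3 libraries in each of these 4 ranges. The knockout minus wild-type differences were -0.05 points at 25 to 29 nt, 0.115 at 15 to 24 nt and 0.370 at 37 to 50 nt. That at 30 to 36 nt was -0.55 points, with 93.0% and 91.8% in the knockout libraries, against 93.0%.

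Reads assigned to gene 1-1 and to set 2 differed in length far more than reads of the genotypes did. Those assigned to gene 1-1 were almost only of 31 nt, with 94.4% (95% Wilson interval 92.3 to 95.9) and 94.1% (91.9 to 95.7) in knockout 1 and 2, against 91.6% (89.6 to 93.2) in the wild type. How reads were assigned between the sets is not known, so these shares describe assigned reads, not what each gene produced. In set 2 the 31 nt share was 26.8% and 26.9% in the knockout libraries, against 25.5% in the wild type. The 8 copies of set 2 were alike, with 31 nt shares of 25.8 to 27.4% in knockout 1 and 25.5 to 29.1% in knockout 2, against 24.5 to 27.1% in the wild type. All 8 had their mode at 31 nt in both knockout libraries, against 5 at 31 nt and 3 at 30 nt in the wild type. Summed over set 2, the wild-type shares at 30 and 31 nt were nearly level, at 25.2% and 25.5%. The copies share reads, so their modes are not separate values.

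For 30 nt reads, the ranges over the 8 copies were 17.2 to 20.9% in knockout 1 and 21.6 to 22.7% in knockout 2, against 23.2 to 27.1% in the wild type. No copy in a knockout library reached the lowest wild-type copy. For 34 nt reads they were 22.1 to 24.6% and 17.9 to 20.5%, against 18.2 to 19.1%, so knockout 2 overlapped the wild type there. As the copies share reads, these ranges show counting spread, not biological spread. Gene 3-1 had its mode at 34 nt in every library, with 13 of 47 and 14 of 52 reads in knockout 1 and 2, against 20 of 64 in the wild type. With so few reads its Wilson intervals overlapped between all libraries at 30 to 34 nt.

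**Figure D5:**
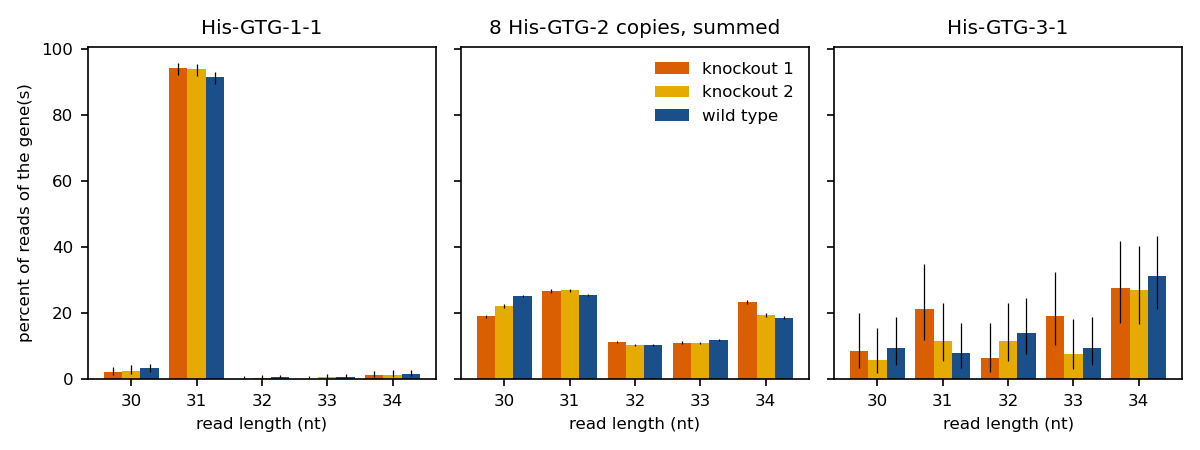
Share of reads at 30 to 34 nt for gene 1-1, the 8 copies of set 2 summed and gene 3-1, in knockout 1, knockout 2 and the wild type; bars start at 0 and error lines are 95% Wilson intervals. Gene 1-1 has over 91% of its reads at 31 nt in each library, set 2 spreads over all 5 lengths, and gene 3-1 is highest at 34 nt.

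The length profile was more alike between libraries than between tRNAs. Overlap, the sum over lengths of the smaller of 2 shares, was 94.9% between the knockout libraries, and 92.4% and 95.6% between knockout 1 and 2 and the wild type. The tRNAs with the most similar profile were Glu-CTC, Pro-TGG and Pro-CGG, with a mean overlap with His-GTG of 68.9%, 66.3% and 64.4% over the 3 libraries. Among the 21 anticodons, 12 had a lower 31 nt share in each knockout library than in the wild type, and 3 a higher one, namely His-GTG, Gly-TCC and Val-TAC. The 30 nt share was lower in both in 7, His-GTG among them, and higher in 9. The 34 nt share was higher in both in 12, His-GTG among them, and lower in 4. His-GTG thus moved with the larger group at 34 nt and against it at 30 and 31 nt. These counts are descriptions of the same 3 libraries and were not tested.

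By change in level, the anticodons nearest to His-GTG were Gly-CCC, Gly-GCC and Gln-CTG. His-GTG had log2 ratios to the wild type of -0.45 in knockout 1 and -0.87 in knockout 2. Gly-CCC had -0.64 and -0.59, Gly-GCC -0.57 and -0.51, and Gln-CTG -0.80 and -0.67. In each of these 3 tRNAs knockout 1 was the lower of the knockout libraries, while in His-GTG it was the higher. All these ratios share the wild-type library.

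Histidine tRNA is 1 of the 4 tRNAs that carry queuosine, with those for asparagine, aspartate and tyrosine. Of these, Asn-GTT fell, with 45.6 and 64.9 RPM in knockout 1 and 2, against 210 RPM in the wild type (log2 fold change -1.92 and adjusted p 0.00051 in edgeR's test). It did not pass with column sums (log2 fold change -1.66, adjusted p = 0.0926) or without miRNA reads in the library size (-1.68, adjusted p = 0.0547), and over its 8 alternatives the adjusted p ranged from 4.68e-06 to 0.0926. In the per-library tables Asn-GTT had 31.9 and 55.0 RPM in knockout 1 and 2, against 101 RPM in the wild type, and the knockout mean was 0.430 times the wild type there, beside 0.263 times in the gene table. With the per-library counts its log2 fold change was -1.21 (adjusted p = 0.0344 in edgeR). The other 3 did not pass, so that 1 of 4 was lower and 0 higher, beside 8.89% lower and 2.22% higher of all 45 anticodons. Tyr-GTA had 2.92 and 7.04 RPM, against 7.02 (log2 -0.47, adjusted p = 0.319), with knockout 2 level with the wild type. Asp-GTC had 865 and 980 RPM, against 983 (log2 -0.09, adjusted p = 0.878), and its log2 fold change was positive, at 0.15 to 0.23, under DESeq2, TMM, column sums and the library size that leaves out miRNA. The median of the 4 was -0.56, beside -0.29 over all 45 anticodons. His-GTG was 3169 RPM in the mean of the knockout libraries, the most abundant of the 4 in every library.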

How the data were processed

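Per the labels' protocols, RNA of 15 to 50 nt from epididymis was cut from a gel and sequenced. The authors deposited read counts that were not normalized, per RNA class, per tRNA gene, and per tRNA gene and read class in 1 table per library. The deposited length lists, of a unit recorded as other because each entry pairs a length with counts, added up to the class counts, with 0 genes failing. Per the submitters' processing notes, cutadapt was used and the build was mm10. The aligner, the counter and the rule for multiply matching reads were not given in the sources used here.

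Counts were summed per anticodon, per anticodon and read class, and per anticodon, class and length. The knockout libraries were tested against the wild-type library with edgeR 4.0.16 in R 4.3.3 (quasi-likelihood test, two-sided) over all features of each table, with library sizes set to the 5-class totals without a composition factor, filterByExpr, and p-values adjusted by Benjamini-Hochberg with a threshold of 0.05. Residual degrees of freedom came to 1, from the knockout pair, and the single wild-type library is taken to vary as they do. The prior degrees of freedom came out infinite in each of these fits, so p-values rest on the spread pooled over features of like abundance. Standard errors are the log2 fold change divided by the root of F. The script was tested on simulated data whose changes were larger than that of the His-GTG sum. That test thus does not show how often a change of the present size would pass. Shares carry 95% Wilson intervals (scipy 1.17.1). DESeq2 1.42.0 was an alternative. Sequence came from the RefSeq promoter window of BC107364, and annotation from GENCODE.

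Genes with at least 100 reads in a library, the 3 most frequent lengths per class and the closest anticodons by length overlap and by change were named by rule, and gene 3-1 was named because it is a member. The members and lists were chosen with earlier results of these data known.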

Additional observations from a re-analysis of the deposited data

How the results depend on the processing

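The log2 fold change of the His-GTG sum stayed below 0 and did not pass under any of the 8 alternatives with a test, from -0.88 to -0.30 (adjusted p 0.184 to 0.744), and was -0.87 to -0.45 when a knockout library was left out, which leaves no test. Of the 8 alternatives for the sum, 2 had an unadjusted p under 0.05 in edgeR's quasi-likelihood test. All 80 values of the 10 genes under 8 alternatives lay below 0, from -0.95 to -0.01, and 0 passed. Those nearest 0 were of gene 3-1, at -0.01 (TMM), -0.02 (column sums), -0.05 (without miRNA reads) and -0.08 (DESeq2). The fits with no filter, the stricter filter and no dispersion trend keep the counts and library sizes, so their values repeat the main fit. The copies of set 2 also share reads, so the 80 values are not independent. No His-GTG gene, read-class sum or length feature passed under any alternative. Left-out libraries gave -1.08 to -0.71 for the first class and -1.38 to -0.41 for the second, and shares of -0.20 to 0.109 points at 25 to 29 nt, -1.15 to 0.04 at 30 to 36 nt, 0.06 to 0.172 at 15 to 24 nt and 0.08 to 0.663 at 37 to 50 nt. The sign at 25 to 29 and 30 to 36 nt thus depended on the library. With the limit at 28 nt the share below it differed by 0.178 points. The second class alone gave -15.4 points at 15 to 24 nt, 11.6 at 30 to 36 nt and 11.5 at 37 to 50 nt, on at most 13 reads per library. With the stricter filter the second-class sum was not tested. Of all anticodons 1 was higher and 4 lower, against 4 and 4 (TMM), 1 and 2 (column sums), 2 and 1 (DESeq2), 0 and 2 (no dispersion trend), and 0 and 0 without miRNA reads, where edgeR left 4 at an unadjusted p under 0.05. The 1 lower queuosine tRNA became 0 with column sums and without miRNA reads. The cause was not tested. No paired analysis was possible because there is 1 wild-type library and no label links a knockout library to it.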

Other observations

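His-GTG was not alone in having more reads in the gene table than in the per-library tables once scarcer tRNAs were included. Of 39 anticodons with at least 100 reads in every library of both tables, 3 had a ratio above 1 in every library, namely His-GTG, Asn-GTT (1.43 and 1.18 in knockout 1 and 2, against 2.08 in the wild type) and Arg-ACG (1.57 and 1.69, against 1.06). For Asn-GTT the ratio was thus lower in the knockout libraries, and for His-GTG and Arg-ACG higher. Among tRNAs that missed this minimum, Thr-CGT had larger ratios than His-GTG, at 6.38 and 4.25 in knockout 1 and 2, against 5.15. Its per-library counts were low, at 48 and 118 reads, against 89. Phe-GAA (1.09 and 1.04, against 1.16) and Ser-CGA (1.52 and 1.27, against 1.04) were also above 1 in every library. Among the His-GTG genes, 1-1 was the exception, with 0.905 and 0.990 in the knockout libraries and 0.887 in the wild type.

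The strand split of His-GTG set 2 was set beside 21 other sets of copies with members on both strands and a mean of at least 100 reads per copy in every library. In the gene table every plus-strand copy lay above every minus-strand copy in every library in 4 of these, Asp-GTC-1, Glu-CTC-1, Gly-GCC-2 and Gly-TCC-1. The plus-strand mean of Asp-GTC-1 was 1.85 and 1.94 times the minus-strand mean in knockout 1 and 2, and 1.92 times in the wild type. In the per-library tables it was 1.27 and 1.26 times, against 1.32. As in His-GTG the split of Asp-GTC-1 was wider in the gene table. That of Glu-CTC-1 was slightly narrower there, at 1.32 and 1.30 in the knockout libraries and 1.32 in the wild type, beside 1.35 and 1.34, against 1.36, in the per-library tables. Gly-GCC-2 was likewise narrower, at 1.09 and 1.09, against 1.10, beside 1.12 and 1.12, against 1.13. Gly-TCC-1, with 1 plus-strand copy, had 2.43 and 2.06, against 2.23, beside 2.39 and 2.04, against 2.18. The median ratio of the 21 sets over the 3 libraries was 0.887 in the gene table and 0.958 in the per-library tables, so a plus-strand excess was not general.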
